A study of Mus musculus with 9 samples.

Results

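The genes described here are mouse genes whose name is, or was until recently, the identifier of a RIKEN cDNA clone of the 4930 to 4933 series. Rows of the count table with such a GENCODE M21 symbol, ending in Rik, were taken when they held at least 10 counts summed over the 9 libraries. This gave 163 of the 23074 genes in the table and of 164 rows with such a name, and the single row left out had 0 counts. GENCODE M21 holds 834 genes with such a symbol, so most of them have no row in the count table. The members and their gene types therefore describe the rows of the table and not the whole series. The first 4 digits were 4930 in 103 members, 4931 in 16, 4932 in 8 and 4933 in 36. The members closest to the limit were 4931429P17Rik and 4930555G01Rik with 10 counts each and 4930546C10Rik with 11. RNA came from testes, freed of their capsule, of 9 mice aged 29 to 30 days after birth, on a mixed C57BL/6, 129/Sv and FVB/N background, with 1 library per mouse. Of these mice, 5 were wild type and 4 were Rfx2-/-, and the comparison asks which of the genes depend on the transcription factor RFX2. The targeted exon 7, which encodes much of the DNA binding domain, was flanked by loxP sites and removed with an ACTB-cre transgene that acts in the whole animal, so the deletion was not limited to germ cells. According to the methods, this mixed background line also kept the neomycin cassette of the targeting vector.

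RIKEN clone names were given in a large project that sequenced full-length mouse cDNAs tissue by tissue, and the clones of this series came from a testis library. The name therefore records where a transcript was first cloned and says nothing about its function. RFX2 is expressed in spermatocytes and spermatids and binds the X-box, an imperfect inverted repeat found in the promoters of many genes of cilia and flagella. At the age studied here round spermatids are plentiful and elongation has begun in wild type testes. Most members have no described role, and what is known is given beside each gene.

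According to the annotation, 122 members were protein coding, 19 were lincRNAs (long intergenic RNAs without a coding sequence), 7 were antisense transcripts, 5 were processed transcripts, 7 were transcribed pseudogenes of several kinds and 3 were unclassified. In GRCm38 coordinates, 20 members (12.3%) lay on the X chromosome, against 4.04% of all genes with at least 10 counts. RefSeq names were found for 146 members, of which 16 have since received another symbol. The filter on low counts retained 147 members for testing, and the 16 that were not tested held at most 104 counts in total. Wild type levels of the tested members spanned 0.540 to 791 CPM (counts divided by the TMM-scaled library size), with 88 of all members at 10 CPM or more and 24 at 100 CPM or more. Per kilobase of exon, the median wild type level of the tested members was 7.40 CPM, against 4.77 CPM for all genes tested. Together the members took 0.715% to 0.869% of the counts of a library.

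Library totals lay between 13574764 and 15193330 counts, apart from 28800855 in Rfx2-/- replicate 1. The targeted gene fell from 549 ± 54.4 to 146 ± 59.7 CPM (SD, n = 5 and 4; log2 fold change -1.91, SE 0.28; edgeR adjusted p 7.81e-04), and no knockout library reached the wild type range. Reads from exons outside the deletion are still counted for this gene. Among 9 lists of cell type markers no gene was called, but all 10 markers of elongating spermatids had a negative log2 fold change, with a median of -0.76. Their summed level was 16530 to 22040 CPM in 4 wild type libraries and 11160 CPM in wild type replicate 3, against 9464 to 12380 CPM in the Rfx2-/- libraries. The 7 markers of meiotic prophase went the other way, with 0 below 0 and a median log2 fold change of 0.64, and their sum was 1119 to 1441 CPM in the wild type libraries and 1602, 2988, 1485 and 1788 CPM in the Rfx2-/- libraries, without overlap. The 8 markers of round spermatids summed to 1368 to 2368 CPM and 1403 to 2245 CPM, with a median log2 fold change of -0.08. This overlap came from wild type replicate 3 (1368 CPM) and Rfx2-/- replicate 2 (2245 CPM). Without these libraries the lowest wild type sum was 1970 CPM and the highest Rfx2-/- sum 1823 CPM. No marker of any list was at 0 in every library. Wild type replicate 3 was the lowest wild type library for 90 of 147 members (61.2%), against 31.9% of all genes tested. In Rfx2-/- replicate 2 short genes were high and long genes low relative to the other knockout libraries, by a median of 0.57 (log2) below 2 kb of exon and -0.65 above 8 kb. The members are short, with a median exon length of 1924 bp against 4213 bp for all genes tested, and their median deviation in that library was 0.24. The same library had the highest summed level of the 6 macrophage markers, 155.6 CPM against at most 79.3 CPM in the others. Its sums were also the highest of all libraries for spermatogonia, meiotic prophase, late spermatocytes (6431 CPM) and Leydig cells, and the lowest for peritubular cells (154.4 CPM). The part of these differences in the results was not tested. In testis RNA as a whole, fewer cells of a type and less RNA per cell cannot be told apart.

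**Figure D1:**
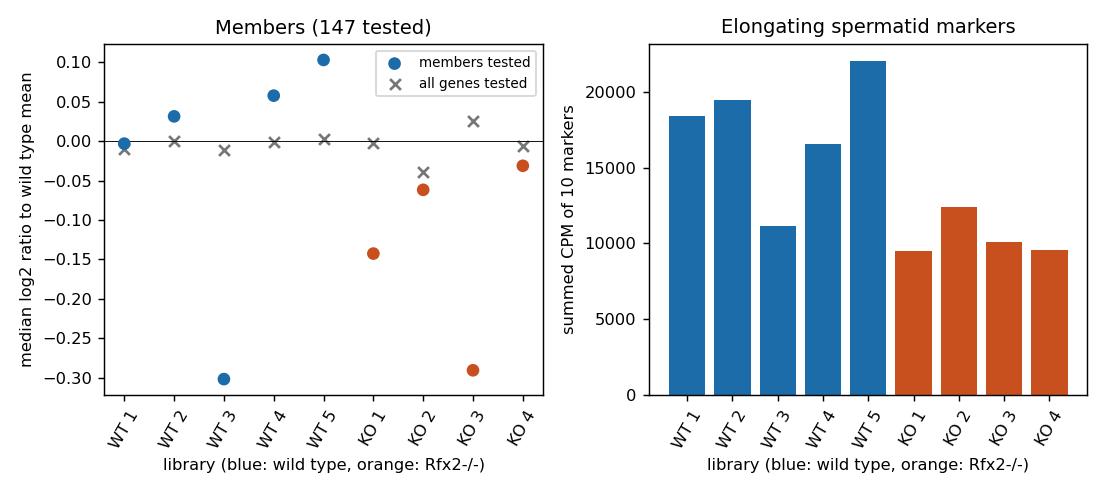
Left, the median log2 ratio of the 147 tested members (circles) and of all genes tested (crosses) to the wild type mean in each library; right, the summed CPM of 10 elongating spermatid markers. Blue stands for wild type (WT) and orange for Rfx2-/- (KO). For the members, wild type replicate 3 is at -0.30, next to Rfx2-/- replicate 3 at -0.29 and below the other knockout libraries. For the markers it is at 11160 CPM, within the range of the knockout libraries.

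Expression of the testis clones 4930524N10Rik, 4933402D24Rik, 4930512B01Rik, 4933406M09Rik, 4932438H23Rik and 4930444P10Rik fell more than 10-fold in Rfx2-/- testes. That of 14 other members fell between 2-fold and 10-fold and passed the limit on the adjusted p given below. Of the 147 members tested, 20 (13.61%) were called lower in Rfx2-/- testes, against 3.68% of all genes tested, and 2 (1.36%) were called higher, against 0.826%. Calls required a change over 2-fold with an adjusted p of 0.01 or less in edgeR. Among the called genes, 12 fell more than 4-fold and 6 more than 10-fold, counts that were not taken over all genes tested. Every Rfx2-/- library lay below every wild type library for 32 members (21.8%; 9.7% of all genes tested), and the reverse held for 7 (4.76%; 6.16% of all genes tested). The 20 genes called lower included 18 of those 32. The median log2 fold change of the tested members was -0.09, against 0.03 for all genes tested, and it moved to -0.005 without Rfx2-/- replicate 3, to -0.05 without wild type replicate 4 and to -0.15 without Rfx2-/- replicate 2. In the fit with all libraries 83 members were below 0 and 64 above. The lower quartile of the members was at -0.64 and that of all genes at -0.25, whereas the upper quartiles were 0.23 and 0.31. The members' values thus reached further down than those of all genes, while their median lay close by. With wild type replicate 3 and Rfx2-/- replicate 2 both left out, an alternative chosen after seeing the data, 23 members were called lower and 2 higher, including all 22 genes called with all libraries. The sums of elongating spermatid markers were lower in the Rfx2-/- libraries than in 4 of the wild type libraries and those of meiotic prophase markers were higher than in all 5, as given above, and their part in these counts was not tested.

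**Figure D2:**
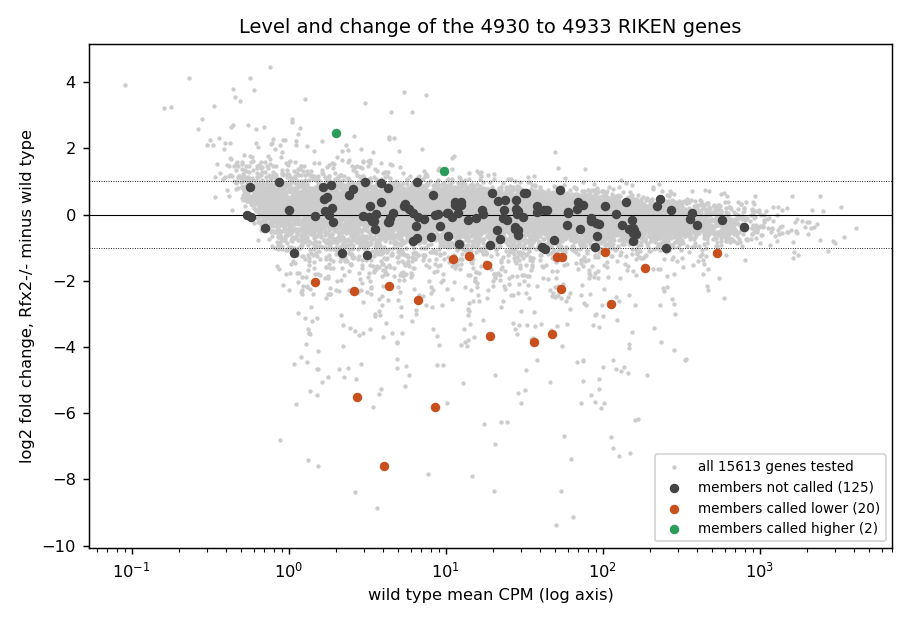
Log2 fold change of Rfx2-/- against wild type (vertical axis) against the wild type mean CPM (horizontal log axis) for all 15613 genes tested (grey) and for the members not called (dark, 125), called lower (orange, 20) and called higher (green, 2). The dotted lines mark 2-fold; the called members reach from -7.60 to 2.46 and occur at low as well as at high levels.

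Genes of another RIKEN series of testis clones were counted in the same way. Of 124 tested genes named after clones of the 1700 series, 17 (13.7%) were called lower and 0 higher, with a median log2 fold change of -0.15. At an unadjusted p under 0.05 in edgeR, 10 of them were higher, and DESeq2 called 0 higher. All other genes with a RIKEN clone name had 10 of 236 called lower (4.24%) and 5 called higher, with a median of 0.12. The difference between the series was not tested.

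**Figure D3:**
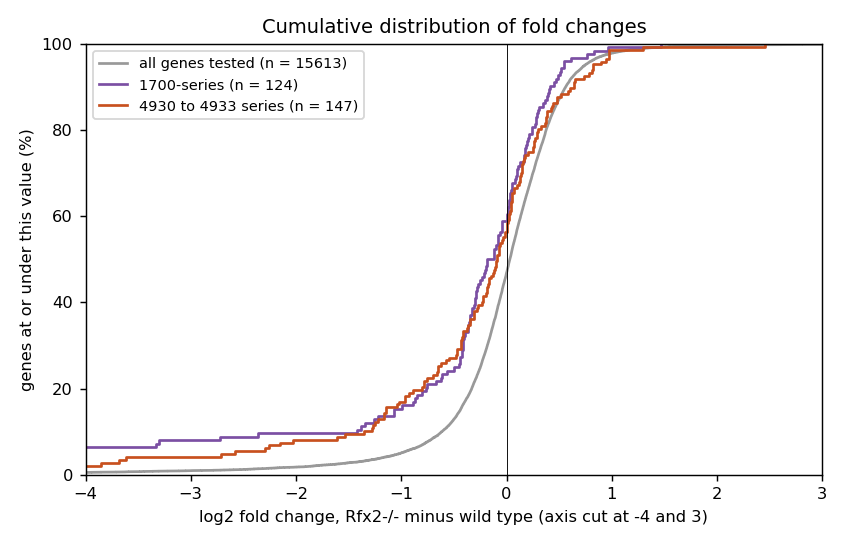
Cumulative percentage of genes (vertical axis) at or under a given log2 fold change of Rfx2-/- against wild type (horizontal axis, cut at -4 and 3) for all 15613 genes tested, 124 genes of the 1700 series and 147 members of the 4930 to 4933 series. Both RIKEN curves run above that of all genes to the left of 0, with medians of -0.15 and -0.09 against 0.03.

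Among the genes called lower, 3 were almost silent without RFX2. The gene with the largest change was 4930524N10Rik (ENSMUSG00000059663, chromosome X, 154339225 to 154343392, minus strand), now named Samt2b, a member of a family of testis proteins with several membrane-spanning segments. It had 4.51, 4.18, 3.52, 3.54 and 4.60 CPM in the wild type libraries and 0.0332, 0, 0 and 0 CPM in the Rfx2-/- libraries. A single read was thus found among the 4 knockout libraries and 273 among the wild type libraries, a ratio of 303.8 after scaling, with a 95% counting interval of 54.1 to 12040. The fitted log2 fold change was -7.60 (SE 0.43, edgeR adjusted p 2.03e-07). This SE, like all others here, was back-calculated from the F statistic of the test. With 1 knockout read it understates the uncertainty, which the counting interval shows better. Of the 50-base words of its transcripts, 20% also occur in those of other genes, most of them in its relative Samt2.

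The second was 4933402D24Rik (chromosome 1, 63754907 to 63769267, minus strand), which encodes a predicted protein of 167 residues. Wild type libraries had 9.40, 7.12, 8.57, 9.50 and 8.34 CPM, and Rfx2-/- libraries had 0.166, 0.334, 0.0681 and 0 CPM. The groups were thus far apart, with 11 reads in the knockout libraries and 580 in the wild type libraries (ratio 58.7, interval 32.6 to 118), and the log2 fold change was -5.81 (SE 0.40, edgeR adjusted p 1.14e-06).

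The third was 4930512B01Rik (chromosome 12, 69790288 to 69840479, plus strand), a processed transcript of 8 exon blocks with no annotated protein. It had 3.06, 0.851, 3.65, 2.87 and 3.19 CPM in wild type mice and 0.0995, 0, 0 and 0.0654 CPM in knockout mice. All knockout libraries were below the lowest wild type library, replicate 2, which itself stood apart from the other 4. The scaled ratio of reads was 51.8 (interval 19.9 to 192) and the log2 fold change was -5.52 (SE 0.62, edgeR adjusted p 8.47e-05). This gene overlaps 417 bp of exon of Cdkl1, a kinase gene of cilia on the opposite strand whose start lies 979 bp away, and 139 bp of exon of Map4k5. Cdkl1 itself fell from 17.6 to 0.209 CPM (log2 fold change -6.32, SE 0.26, edgeR adjusted p 1.56e-08), whereas Map4k5 had 48.4 and 48.7 CPM. According to the methods, reads over exons of different genes were left out, and the use of strand in counting is not stated. Reads of 4930512B01Rik and Cdkl1 in the shared stretch may therefore have been lost from both genes.

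**Figure D4:**
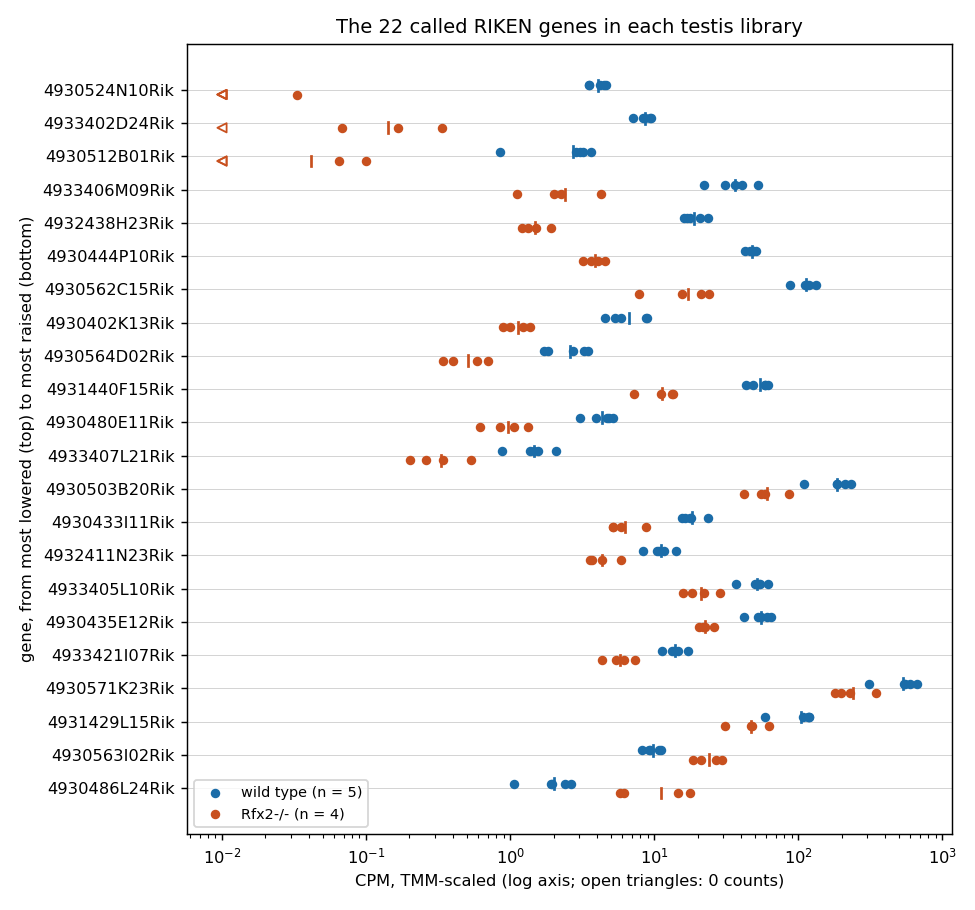
CPM (horizontal log axis) of the 22 called members in each wild type (blue, n = 5) and Rfx2-/- (orange, n = 4) library, from the most lowered gene at the top to the most raised at the bottom. Vertical bars are group means and open triangles are libraries with 0 counts; the groups overlap for 4930571K23Rik and 4931429L15Rik alone.

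A further 3 genes fell more than 10-fold while remaining detectable in all knockout libraries. 4933406M09Rik (chromosome 1, 134385940 to 134390981, plus strand) is now called Mgat4f, after a family of N-acetylglucosaminyltransferases that branch N-glycans. Its levels were 30.8, 40.4, 21.99, 36.1 and 52.3 CPM in wild type mice and 4.28, 2.004, 2.25 and 1.11 CPM in knockout mice. The knockout mean was 6.64% of the wild type mean (log2 fold change -3.85, SE 0.37, edgeR adjusted p 2e-05), although both groups varied widely.

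4932438H23Rik (chromosome 16, 91053935 to 91095122, minus strand) had 16.9, 20.8, 16.01, 17.6 and 23.7 CPM in wild type mice and 1.33, 1.20, 1.91 and 1.503 CPM in knockout mice. The knockout libraries were close to each other at 7.82% of the wild type mean (log2 fold change -3.68, SE 0.21, edgeR adjusted p 1.92e-07). Of its 50-base words, 23.9% are shared with transcripts of other genes, most often those of another member, 4931406G06Rik, so its counts are less certain than those of unique genes.

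4930444P10Rik (chromosome 1, 16065979 to 16093325, minus strand), which encodes a predicted protein of 185 residues, gave the smallest adjusted p of the series. Wild type libraries had 48.2, 46.4, 42.6, 48.5 and 51.0 CPM and Rfx2-/- libraries 3.62, 4.54, 3.20 and 4.05 CPM. Both groups were tight, and the knockout mean was 8.14% of the wild type mean (log2 fold change -3.62, SE 0.15, edgeR adjusted p 1.76e-08).

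Of the next 6 genes, which fell between 4-fold and 10-fold, the most abundant was 4930562C15Rik (chromosome 16, 4835416 to 4867686, plus strand), with a predicted protein of 1145 residues. It had 114, 112, 87.4, 119 and 132 CPM in wild type mice and 24.1, 7.82, 15.6 and 21.1 CPM in knockout mice (log2 fold change -2.71, SE 0.28, edgeR adjusted p 4.29e-05). Rfx2-/- replicate 2 was the lowest, and leaving it out gave -2.47. 4931440F15Rik (chromosome 11, 29822395 to 29825668, minus strand) is a gene of a single exon now called Fem1al, after the ankyrin-repeat proteins of the FEM1 family, which recruit substrates to ubiquitin ligases. It fell from 61.3, 48.2, 43.4, 58.5 and 59.0 CPM to 13.3, 11.2, 7.22 and 13.5 CPM (log2 fold change -2.25, SE 0.20, edgeR adjusted p 1.17e-05), and it shares 17.8% of its 50-base words with other genes, most often Fem1a. Both genes were well apart between the genotypes.

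The other 4 genes of this range were less abundant. The X-linked 4930402K13Rik, a gene of 1 exon, had 4.52 to 8.88 CPM in wild type mice and 0.896 to 1.37 CPM in knockout mice (log2 fold change -2.58, SE 0.27). 4930564D02Rik, with a predicted protein of 103 residues, had 1.71 to 3.48 CPM and 0.341 to 0.697 CPM (-2.30, SE 0.32). 4930480E11Rik, also X-linked and of 1 exon, had 3.06 to 5.14 CPM and 0.613 to 1.34 CPM (-2.15, SE 0.26). None of the 4 overlapped between genotypes, and the edgeR adjusted p of these 3 was 4.53e-05 to 5.28e-04. 4933407L21Rik had a mean of only 14.1 counts, below the 20 set for naming a called gene, and was named after its values were seen, to complete the list. Its levels were 0.884 to 2.09 CPM in wild type mice and 0.200 to 0.531 CPM in knockout mice (log2 fold change -2.03, SE 0.35, edgeR adjusted p 2.43e-03), and it lost its call when Rfx2-/- replicate 3 or replicate 4 was left out (adjusted p 0.0112 and 0.0137). It overlaps 71 bp of exon of the receptor gene Gpr55 on the opposite strand, which had 10.2 and 11.1 CPM.

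Between 2-fold and 4-fold, 8 genes were called lower. 4930503B20Rik (chromosome 3, 146645193 to 146651317, minus strand) was among the abundant ones, with 186, 209, 110, 186 and 233 CPM in wild type mice and 54.8, 86.4, 59.0 and 41.7 CPM in knockout mice (log2 fold change -1.61, SE 0.25, edgeR adjusted p 1.09e-03). It overlaps Samd13 on the same strand and shares 89.2% of its 50-base words with other genes, mostly with Samd13, and Samd13 was counted at 0.303 and 0.142 CPM, so reads of these genes cannot be told apart with certainty. 4930435E12Rik (chromosome 16, 38812206 to 38828749, minus strand) is now Tex55, a sperm protein that binds the regulatory subunit of protein kinase A. It had 52.3, 60.5, 41.7, 55.1 and 64.3 CPM in wild type mice and 21.7, 25.99, 20.4 and 22.6 CPM in knockout mice, without overlap (log2 fold change -1.27, SE 0.15, edgeR adjusted p 1.51e-04).

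4930433I11Rik had 15.6 to 23.6 CPM in wild type mice and 5.18 to 8.82 CPM in knockout mice (log2 fold change -1.54, SE 0.20), and 26.5% of its 50-base words are shared with other genes, most often the predicted gene Gm6820. The X-linked single-exon gene 4932411N23Rik had 8.30 to 14.3 CPM and 3.58 to 5.88 CPM (-1.35, SE 0.21), and 4933421I07Rik had 11.2 to 17.2 CPM and 4.34 to 7.30 CPM (-1.25, SE 0.19). None of these 3 genes overlapped between genotypes, and their edgeR adjusted p was 3.16e-04 to 1.08e-03.

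The last 2 of the called genes were the weakest. The lincRNA 4930571K23Rik (chromosome 7, 125368861 to 125371013, plus strand) was the most abundant called member, with 545, 597, 307, 546 and 668 CPM in wild type mice and 181, 346, 228 and 197 CPM in knockout mice. Wild type replicate 3 lay below Rfx2-/- replicate 2, and the log2 fold change was -1.16 (SE 0.25, edgeR adjusted p 9.94e-03). 4931429L15Rik (chromosome 9, 46303361 to 46319986, minus strand) had 107, 119, 58.3, 117 and 118 CPM and 62.3, 30.8, 46.9 and 47.8 CPM (-1.15, SE 0.24, edgeR adjusted p 9.26e-03). Here wild type replicate 3 lay below Rfx2-/- replicate 1. Each of these genes lost its call in 10 of 17 alternatives, and without wild type replicate 3 both passed, with adjusted p of 3.11e-03 and 2.17e-03.

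The genes that rose were 4930486L24Rik and 4930563I02Rik. 4930486L24Rik (chromosome 13, 60842612 to 60864475, minus strand) had 1.07, 2.398, 1.93, 2.65 and 1.95 CPM in wild type mice and 5.74, 17.8, 14.6 and 6.14 CPM in knockout mice (log2 fold change 2.46, SE 0.37, edgeR adjusted p 9.53e-04). All knockout libraries were above all wild type libraries, but 88.3% of its 50-base words occur also in other genes, most often Gm49392, so the count cannot be ascribed to this gene alone. 4930563I02Rik (chromosome 14, 60087071 to 60096093, plus strand) is an antisense transcript that overlaps 96 bp of exon of the lipid flippase gene Atp8a2. It had 9.24, 10.8, 8.24, 11.2 and 9.27 CPM in wild type mice and 18.6, 29.4, 21.2 and 27.0 CPM in knockout mice (log2 fold change 1.30, SE 0.17, edgeR adjusted p 3.16e-04). Atp8a2 itself was at 65.0 and 64.8 CPM.

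Protein coding members made up most of the calls, with 18 of 113 tested lower (15.9%) against 3.68% of all protein coding genes, and 1 higher. Of 34 tested members that are not protein coding, 2 were lower (5.88%) and 1 higher, and all non-coding genes of the table had 4.46% lower. On the X chromosome 4 of 19 tested members were called lower (21.1%), 2.50% of all X-linked genes were, and the median log2 fold change was 0.16 for the members and 0.23 for all X-linked genes. The X-linked members thus showed both a few strong losses and a middle above 0, and the latter was found for the chromosome as a whole. None of these differences between classes was tested.

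Several members came close to a call. In edgeR, 5 (3.40%) had an adjusted p at or under 0.01 and a fall of less than 2-fold, against 0.807% of all genes tested, among them 4930519G04Rik, with 36.1 to 44.1 CPM in wild type mice and 17.8 to 26.1 CPM in knockout mice (log2 fold change -0.97, SE 0.15, adjusted p 8.66e-04). Another 5 (3.40%) changed more than 2-fold without passing the p limit, against 2.68% of all genes tested. One of them, the pseudogene 4930451G09Rik, ranged from 68.4 to 386 CPM within wild type and from 47.0 to 199.9 CPM within Rfx2-/- testes, so that its log2 fold change of -1.02 (SE 0.53) was within the spread between mice. These 2 genes were chosen after their values were seen.

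The 5 most abundant members that were not called changed less than 2-fold, and their groups overlapped. 4933411K16Rik, a gene of 1 exon and the most abundant member of the series in wild type, had 806, 898, 496, 776 and 981 CPM in wild type mice and 585, 727, 619 and 518 CPM in knockout mice (log2 fold change -0.37, SE 0.20, edgeR adjusted p 0.243). 4932438A13Rik, the gene of a very large lipid transfer protein with 5005 residues in this annotation, had 469 to 655 CPM and 275 to 686 CPM (-0.17, SE 0.24). Its lowest value was in Rfx2-/- replicate 2, and its exons cover 32279 bp. 4930407I10Rik had 278 to 498 CPM and 205 to 394 CPM (-0.31, SE 0.22). 4933415F23Rik, now called Ppp1r14bl for its similarity to an inhibitor subunit of protein phosphatase 1, had 292 to 441 CPM and 296 to 508 CPM (0.05, SE 0.19). 4930453N24Rik had 268 to 451 CPM and 230 to 474 CPM (-0.12, SE 0.22). For 4932438A13Rik, 4933415F23Rik and 4930453N24Rik the direction depended on the processing.

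RFX2 peaks came from the study's chromatin immunoprecipitation of dissociated germ cells of wild type mice at P21, taken as membership only. Members with such a peak in their promoter numbered 13, and all were tested. Of these, 2 were called lower (15.4%) and 0 higher, against 18 and 2 of the 134 tested members without a peak, and 11.1% of all genes with a peak were called lower. At an unadjusted p under 0.05 in edgeR, 7 of the 13 were lower (53.8%, against 34.5% of all genes with a peak and 13.7% of all genes tested) and 0 higher, and DESeq2 called 2 lower and 0 higher. The median log2 fold change of the 13 was -0.55, that of the other members -0.07 and that of all genes with a peak -0.18. Every knockout library was below every wild type library for 7 of the 13 (53.8%), against 18.7% of the members without a peak, 27.9% of all genes with a peak and 9.7% of all genes tested. Most of the strongly lowered members, including 5 of the 6 that fell more than 10-fold, had no promoter peak in that list. The list covers peaks in promoters only, and the mice it came from were younger than those used for RNA.

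**Figure D5:**
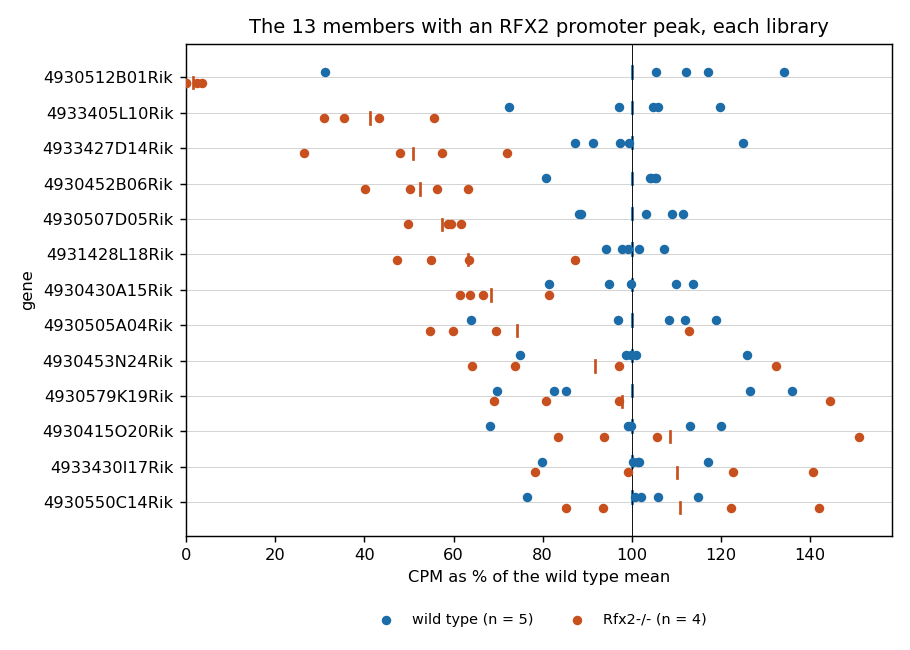
CPM of the 13 members with an RFX2 promoter peak as a percentage of the wild type mean of each gene, in each wild type (blue, n = 5) and Rfx2-/- (orange, n = 4) library; bars are group means. The genotypes do not overlap for the upper 7 genes, from 1.51% of wild type for 4930512B01Rik to 68.3% for 4930430A15Rik, and overlap for the lower 6. For 4930430A15Rik they touch, with the lowest wild type and the highest Rfx2-/- library both at 127.8 CPM when rounded.

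Besides 4930512B01Rik, the called gene of this group was 4933405L10Rik (chromosome 8, 105707655 to 105710246, plus strand), with a predicted protein of 307 residues. It had 54.2, 53.7, 37.1, 49.8 and 61.4 CPM in wild type mice and 18.2, 28.5, 15.8 and 22.2 CPM in knockout mice, without overlap (log2 fold change -1.28, SE 0.20, edgeR adjusted p 1.12e-03). It lies head to head with Enkd1, the gene of an enkurin-domain protein, which also has a promoter peak and shares 185 bp of exon with it on the opposite strand. Enkd1 had 99.7 and 88.5 CPM (log2 fold change -0.17, SE 0.18, adjusted p 0.568) and did not pass.

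Among the others, 4930452B06Rik is now Cfap20dc, which holds a domain of the ciliary protein CFAP20, and had 15.4, 20.1, 19.9, 19.9 and 20.1 CPM in wild type mice and 10.8, 7.68, 9.60 and 12.1 CPM in knockout mice (log2 fold change -0.93, SE 0.17, edgeR adjusted p 2.99e-03). 4930507D05Rik had 5.42 to 6.85 CPM and 3.06 to 3.79 CPM (-0.80, SE 0.16, edgeR adjusted p 7.51e-03). Both passed the p limit at less than 2-fold. 4933427D14Rik, the mouse counterpart of a human protein of centriolar satellites, had 77.3 to 111 CPM and 23.5 to 63.9 CPM (-0.97, SE 0.24, edgeR adjusted p 0.0232), and it was called without Rfx2-/- replicate 1. 4931428L18Rik had 7.58 to 8.62 CPM and 3.81 to 7.01 CPM (-0.66, SE 0.19), and 4930430A15Rik, named A26c3 in RefSeq, had 128 to 178 CPM and 96.5 to 128 CPM (-0.55, SE 0.15), with edgeR adjusted p of 0.0416 and 0.0328. These 3 had no overlap but did not pass the p limit. For 4930430A15Rik the margin was negligible, as wild type replicate 3 and Rfx2-/- replicate 2 were both at 127.8 CPM when rounded.

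The other 6 genes with a peak overlapped between genotypes, 4930453N24Rik, described above, and 5 more. Their log2 fold changes were -0.43 (SE 0.24) for 4930505A04Rik, -0.04 (SE 0.30) for 4930579K19Rik, 0.12 (SE 0.20) for 4930415O20Rik, 0.14 (SE 0.18) for 4933430I17Rik and 0.15 (SE 0.18) for 4930550C14Rik. For 4930579K19Rik, 4930415O20Rik and 4930550C14Rik the direction depended on the processing.

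Of the 13 genes with a peak, 8 had the start of another gene within 1 kb on the opposite strand. All 8 of these neighbours are also listed with a promoter peak. The positions of the peaks were not used, so a peak cannot be assigned to the member or to its neighbour. Of these 8 neighbours, only Cdkl1 was called with all libraries. Pih1d3, whose product assembles axonemal dyneins, lies next to 4931428L18Rik and had 13.99 and 7.999 CPM (log2 fold change -0.81, SE 0.25, edgeR adjusted p 0.0615). Without Rfx2-/- replicate 2 its log2 fold change was -1.18 (edgeR adjusted p 1.42e-04), past both limits for a call. Txndc17, next to 4933427D14Rik, had 12.1 and 20.01 CPM (0.72, SE 0.25, edgeR adjusted p 0.0892), and without Rfx2-/- replicate 2 it was at 0.36 (edgeR adjusted p 0.146). Within these head-to-head pairs the member and its neighbour thus had log2 fold changes of the same sign for 4931428L18Rik and of opposite sign for 4933427D14Rik. With all libraries neither neighbour passed. The other neighbours were Supv3l1, a mitochondrial RNA helicase, Ccnt1, a cyclin of transcription elongation, Copb2, a coat protein of Golgi vesicles, and Pole3, a DNA polymerase subunit, with log2 fold changes of -0.23 to 0.33.

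Promoters were searched for the X-box, written here as GTNNCC, then 0 to 3 bases, then NGNAAC, on both strands of the window from 250 bases before to 50 after the start of a gene in RefSeq (GRCm38.p6). The half-site GTTGCC was searched separately and can lie inside the full pattern. Of 118 members with a promoter in the table, 12 held the full pattern (10.2%), against 5.94% of all 27025 genes, and 19.5% held the half-site, against 14.1%. The full pattern was found in 6 of the 13 members with a peak (46.2%; 35.6% of all genes with a peak), in 5 of 17 called lower (29.4%) and in 2 of 88 that were neither called nor had a peak. A match is a description of the sequence and does not show binding. The stretches around the matches are given because they set the called members with a match but without a peak beside those with a peak, and the capitals mark the match.

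The first 4 are from called members without a promoter peak.
4931440F15Rik, chr11:29825676-29825714, minus strand: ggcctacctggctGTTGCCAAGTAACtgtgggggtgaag
4930480E11Rik, chrX:78369584-78369622, plus strand: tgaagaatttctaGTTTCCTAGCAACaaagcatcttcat
4933421I07Rik, chr7:42448114-42448152, minus strand: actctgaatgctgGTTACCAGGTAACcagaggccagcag
4931429L15Rik, chr9:46320181-46320219, minus strand: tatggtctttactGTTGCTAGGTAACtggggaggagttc
The next 4 are from members with a peak that were not called. Another such member, 4930550C14Rik, with a match that begins 5 bases after the start, and a second match in 4931428L18Rik, 57 bases before it, are not shown.
4930452B06Rik, chr14:8666366-8666405, minus strand: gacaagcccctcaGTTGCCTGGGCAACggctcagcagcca
4931428L18Rik, chr1:31222767-31222806, minus strand: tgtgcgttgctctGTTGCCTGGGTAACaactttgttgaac
4930505A04Rik, chr11:30471855-30471893, minus strand: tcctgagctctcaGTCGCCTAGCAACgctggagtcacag
4930579K19Rik, chr9:98563605-98563644, minus strand: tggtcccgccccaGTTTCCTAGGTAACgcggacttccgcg
Each match is 13 or 14 bases long, and those of the called genes begin 33, 46, 37 and 220 bases before the start, in the order given. The match of 4931429L15Rik fits the pattern on the strand opposite to the one shown.

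The promoter windows of the called members with a peak are shown whole, with any match in capitals. That of 4933405L10Rik holds 1 match, which begins 87 bases before the RefSeq start and fits the pattern on the strand opposite to the one shown. Enkd1, on the minus strand, has its annotated start at 105708210 within the window. That of 4930512B01Rik holds no match.
4933405L10Rik, chr8:105708039-105708338, plus strand: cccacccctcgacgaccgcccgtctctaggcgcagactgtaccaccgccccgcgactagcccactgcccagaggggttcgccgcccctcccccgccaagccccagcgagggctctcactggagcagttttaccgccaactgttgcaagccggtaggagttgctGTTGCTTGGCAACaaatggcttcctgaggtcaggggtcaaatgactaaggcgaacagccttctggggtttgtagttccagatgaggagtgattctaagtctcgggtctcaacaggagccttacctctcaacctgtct
4930512B01Rik, chr12:69790094-69790393, plus strand: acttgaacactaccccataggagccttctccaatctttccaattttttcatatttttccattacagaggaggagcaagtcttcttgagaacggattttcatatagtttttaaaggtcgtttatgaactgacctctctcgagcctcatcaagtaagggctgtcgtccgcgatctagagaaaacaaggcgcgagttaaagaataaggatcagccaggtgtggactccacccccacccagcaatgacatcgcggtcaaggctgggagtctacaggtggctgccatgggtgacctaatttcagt
The absence of a match says only that these letters are not in this window.

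The knockout libraries differed among themselves for single called members, such as 4930562C15Rik with 7.82 to 24.1 CPM and 4930486L24Rik with 5.74 to 17.8 CPM. The median log2 ratio of the 20 lowered genes to the wild type mean was -1.69, -1.76, -1.97 and -1.89 in Rfx2-/- replicates 1 to 4. Among the wild type libraries it was -0.34 in replicate 3 and 0.01 to 0.22 in the other 4, and replicate 3 was the lowest wild type library for 15 of the 20. The genes were chosen for this difference between genotypes, so its size is a description. Wild type replicate 3, which also had the lowest sum of elongating spermatid markers among wild type libraries, was shifted toward the knockout. Whether that shift and the lower marker sums in Rfx2-/- testes have a common source was not tested.

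Of 163 members, 39 overlap exons of another gene and 34 have the start of another gene within 1 kb on the opposite strand. Transcripts of 31 members share over 20% of their 50-base words with those of another gene, 4 of the called members among them. Reads that could come from several places, or that lay over exons of different genes, were left out according to the methods. Reads of these members may therefore have been lost. Whether any reads of a neighbour were included cannot be told, because the use of strand is not given.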

How the data were processed

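Total RNA of decapsulated testes was made into TruSeq libraries and sequenced by the authors, who mapped single reads to GRCm38 and deposited raw whole-number counts per gene without normalisation. The submitters' processing notes name CASAVA 1.8.2, STAR 2.4 and featureCounts 1.4.6. Reads with several positions, or over exons of different genes, were left out according to the methods, which state counting over exons of protein coding isoforms, although 41 members are not protein coding in GENCODE M21. The use of strand is not given in the sources used here.

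Differential expression was tested on all 9 libraries in R 4.3.3 with edgeR 4.0.16 (robust quasi-likelihood F test, TMM factors, filterByExpr, genotype as the single factor, Benjamini-Hochberg adjustment over 15613 genes). Genes were called at an adjusted p at or under 0.01 and over 2-fold. DESeq2 1.42.0, other scalings, no filter, unadjusted p, a test against 2-fold, removal of a trend on gene length and the omission of each library were alternatives. The procedure was tested on simulated data. CPM carry the TMM scaling. Per-library values follow replicate order, which is the order of deposition, and errors of CPM are SDs. Each SE of a log2 fold change is its absolute value divided by the square root of the F statistic. For genes with few reads this SE can be smaller than the counting error. Counting intervals (exact, 95%) cover counting error only. Sequences are from RefSeq, GRCm38.p6; 50-base words were compared over all GENCODE M21 transcripts. Libraries of a genotype differed by a chi-square of at least 4.52 per gene, more than repeat sequencing of 1 library would give. That each came from a separate mouse rests on the methods.

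Named were the called members with a mean of at least 20 counts, those with a promoter peak, the 5 most abundant not called and genes near called members or members with a peak. The members and lists were chosen with earlier results of these data known.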

Additional observations from a re-analysis of the deposited data

Results flagged for a closer look

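Among 76 groups of libraries of the named genes, 1 library stood apart from the rest of its group in 4, by a gap larger than Dixon's limit at 95%, which chance alone exceeds in about 5% of groups. 4931429L15Rik had 58.3 CPM in wild type replicate 3 and 107 to 119 CPM in the other wild type libraries. 4930512B01Rik had 0.851 CPM (11 counts) in wild type replicate 2 and 2.87 to 3.65 CPM in the others. 4930452B06Rik had 15.4 CPM in wild type replicate 1 and 19.9 to 20.1 CPM in the others. 4930524N10Rik had 0.0332 CPM in Rfx2-/- replicate 1, which is 1 count in the most deeply sequenced library, and 0 in the other knockout libraries.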

How the results depend on the processing

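Over the 17 alternatives, 11 of the 20 genes called lower kept their call in every one. Outside the test against 2-fold, 17 to 24 members were called lower and 2 or 3 higher. Over all genes these settings called 447 to 750 lower and 92 to 262 higher. The test against 2-fold in edgeR left 11 members lower and 0 higher, and 272 lower and 29 higher over all genes. At an unadjusted p under 0.05 in that test 2 members were higher, and DESeq2 called 2 higher. Rfx2 did not pass the test against 2-fold (log2 fold change -1.91, adjusted p 0.0283). The median of the members was 0.0363 with total counts, where the median of all genes moved from 0.03 to 0.16, so that relative to all genes it was -0.13 against -0.12; all calls were then 483 lower and 191 higher, or 71.7% lower against 81.7% (575 and 129). With wild type replicate 3 and Rfx2-/- replicate 2 left out, chosen after seeing the data, the median was -0.23 and all genes had 729 lower calls. Among the genes named, the direction turned only for some that were not called: with total counts 4930453N24Rik was 0.0225 and 4930579K19Rik 0.0996; with the length trend removed 4930415O20Rik was -0.0625, 4932438A13Rik 0.0506 and 4933415F23Rik -0.079; and with both libraries left out 4930415O20Rik was -0.19, 4930550C14Rik -0.0782, 4932438A13Rik 0.0831 and 4933415F23Rik -0.19. With single libraries left out, the range was -0.0825 to 0.26 for 4930415O20Rik, -0.35 to 0.0486 for 4930453N24Rik, -0.27 to 0.12 for 4930579K19Rik, -0.32 to 0.0396 for 4932438A13Rik and -0.11 to 0.19 for 4933415F23Rik. The cause of these turns was not tested. No paired analysis was possible because the labels pair no animals. A count of 0 allows up to 3 counts, or 0.0995 to 0.234 CPM, in these libraries.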
